A study of Homo sapiens with 8 samples.

Results

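Subtelomeric peaks are described here: the autosomal MBD-seq peaks whose midpoint lies within 2 Mb of the first or the last known base of a chromosome in GRCh37. This choice rests on position alone. The peak lists of 8 neuroblastoma (NB) cell lines hold 29097 such peaks, of 711243 peaks in all, and the peaks of the same lines elsewhere on the 22 autosomes (672914) served as the comparison. The rule gives 44 ends, of which 39 lie next to a telomere. The other 5 are the first known bases of chromosomes 13, 14, 15, 21 and 22, whose short arms are largely missing from the assembly, so these starts do not lie near a telomere. They were kept as the rule states and are marked as acrocentric below.

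MBD-seq captures sheared DNA with the methyl-CpG-binding domain of MBD2 and sequences what is retained, so that methylated, CpG-containing DNA piles up into peaks. NB is a childhood tumor of the sympathetic nervous system, and *MYCN* amplification (MNA) marks an aggressive form of it. The MNA lines were IMR-32, N206, CHP-902R and LA-N-2, and the *MYCN* single copy lines were SJNB-1, CLB-GA, SK-N-AS and SH-SY5Y. Each line is an established tumor culture that was sequenced as 1 library without a stated treatment, so that n counts lines and all p-values measure the spread between lines. CHP-902R is MNA by its label and in the supplement of the study, while the main text of the study names 7 lines without it in this comparison. The 8 lists hold from 70816 to 112412 peaks. They carry no read counts, so the depth of each line is unknown, and the absence of a peak does not show the absence of methylation.

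Subtelomeres are the stretches just inside the telomere repeats of a chromosome. They are rich in genes, GC and CpG, hold many minisatellites (tandem repeats with units longer than those of microsatellites), and in their outermost part consist of duplicated blocks that several chromosomes share. In the somatic tissues and tumors that have been studied, much of the repeated DNA there is methylated, as is typical of repeats with many CpG. The sequence itself showed these features. The ends made up 3.18% of the known autosomal bases but 6.51% of the CpG, with 2.04 CpG per 100 bp against 0.962 elsewhere and a GC content of 48.2% against 40.8%. Tandem repeats with units of 10 to 80 bp covered 5.19% of the ends and 0.752% of the other sequence, and CpG islands covered 4.08% and 0.864%. Of sampled words of 45 bases, the read length, 83.7% at the ends and 91.3% elsewhere occurred once in the genome.

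The sequences under the strongest shared peaks show what was captured. Peaks of all lines that overlapped or touched were merged into regions, and regions with a peak in all 8 lines were ordered by the mean percentile of their score, a value that the peak caller derives from its p-value and that was ranked here within each list. From the 10 regions at the top of this order, 5 are printed as the 300 bases in the middle of the stretch that a peak of every line covered, from the plus strand of GRCh37, 5′ to 3′, with each CpG in capitals. They were picked to show a D4Z4-like unit, 2 minisatellites and 2 introns of calcium channel genes.
DUX4L9, chr4:190943194-190943493: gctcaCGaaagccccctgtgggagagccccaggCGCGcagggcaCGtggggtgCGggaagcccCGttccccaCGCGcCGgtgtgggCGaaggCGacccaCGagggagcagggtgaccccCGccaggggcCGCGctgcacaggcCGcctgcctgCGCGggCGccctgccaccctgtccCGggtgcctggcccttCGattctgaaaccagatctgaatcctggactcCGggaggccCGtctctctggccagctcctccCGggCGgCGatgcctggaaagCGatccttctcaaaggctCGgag
FRG1-DT, chr4:190802398-190802697: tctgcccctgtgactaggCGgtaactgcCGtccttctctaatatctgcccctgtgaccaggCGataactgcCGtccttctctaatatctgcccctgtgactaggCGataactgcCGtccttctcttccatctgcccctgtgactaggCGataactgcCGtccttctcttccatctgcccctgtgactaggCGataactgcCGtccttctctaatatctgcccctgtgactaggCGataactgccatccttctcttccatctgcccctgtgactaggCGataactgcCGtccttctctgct
YTHDF1 side, chr20:61816846-61817145: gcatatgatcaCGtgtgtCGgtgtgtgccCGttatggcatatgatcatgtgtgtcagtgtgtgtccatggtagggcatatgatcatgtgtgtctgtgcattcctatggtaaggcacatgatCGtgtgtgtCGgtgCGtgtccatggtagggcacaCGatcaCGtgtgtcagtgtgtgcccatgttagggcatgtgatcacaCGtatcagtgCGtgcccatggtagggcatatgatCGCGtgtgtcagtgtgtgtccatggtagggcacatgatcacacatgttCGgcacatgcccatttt
CACNA1B, chr9:140795222-140795521: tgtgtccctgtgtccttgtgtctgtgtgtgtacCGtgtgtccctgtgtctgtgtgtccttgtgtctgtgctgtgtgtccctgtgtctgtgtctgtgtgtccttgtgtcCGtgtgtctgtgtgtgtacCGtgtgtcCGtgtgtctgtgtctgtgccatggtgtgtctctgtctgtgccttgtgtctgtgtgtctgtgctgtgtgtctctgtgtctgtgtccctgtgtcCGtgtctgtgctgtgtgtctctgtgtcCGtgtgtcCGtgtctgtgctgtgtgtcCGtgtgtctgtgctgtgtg
CACNA2D4, chr12:1980395-1980694: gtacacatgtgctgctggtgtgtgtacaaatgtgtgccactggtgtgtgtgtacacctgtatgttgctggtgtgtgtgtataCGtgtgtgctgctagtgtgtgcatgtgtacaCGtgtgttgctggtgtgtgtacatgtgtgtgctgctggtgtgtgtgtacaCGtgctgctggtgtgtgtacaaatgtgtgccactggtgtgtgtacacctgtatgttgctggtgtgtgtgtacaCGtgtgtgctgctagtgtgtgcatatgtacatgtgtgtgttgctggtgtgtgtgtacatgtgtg

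The DUX4L9 stretch held 28 CpG and no marked tandem order, while the FRG1-DT stretch held 13 CpG in a repeat in which 93.8% of the bases equalled the base 43 positions further on. The stretch on 20q, which lies outside genes and 8996 bp from *YTHDF1*, repeated with a period of 38 bases at 71.4% identity and also held 13 CpG. The stretches in *CACNA1B* and *CACNA2D4* had 8 and 4 CpG in runs of TG-rich sequence with weaker periodicity (58.6% identity at a period of 8 bases and 56.7% at 25 bases).

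The region at *DUX4L9*, a pseudogene of the D4Z4 macrosatellite family, lay at chr4:190942644-190944265, 101 kb from the 4q end, and overlapped a promoter window and a CpG island. Its scores were 3100 in IMR-32, 3215 in N206, 2352 in CHP-902R, 510.2 in LA-N-2, 3149 in CLB-GA, 3100 in SH-SY5Y, 1247 in SK-N-AS and 3100 in SJNB-1. LA-N-2 had the lowest score here, but its highest score at any end was 614.1, against 1841 to 3215 in the other lists, and by rank within the lists the region had a mean percentile of 99.99. A score of 3100 recurred among the lists, so that equal scores at the top give no order. Only 6.17% of the 45-base words in this region were unique, so reads of other copies cannot be told apart from its own. The region at *MIR3648*, a microRNA gene inside the ribosomal DNA repeat, came next at the acrocentric 21p end, with scores from 252.4 in LA-N-2 to 3100, 14.4 CpG per 100 bp and 25.4% unique words. LA-N-2 again had the lowest score, on the scale of its own list.

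The other regions of the 10 lay largely in unique sequence. The *FRG1-DT* region, inside the body of the divergent transcript of *FRG1* and over the promoter window of the lncRNA gene *LINC01596*, at chr4:190801990-190802976, scored 189.5 in IMR-32, 388.1 in N206, 572.2 in CHP-902R, 614.1 in LA-N-2, 266.3 in CLB-GA, 271.5 in SH-SY5Y, 416.9 in SK-N-AS and 320.1 in SJNB-1. Its groups overlapped, and 83.8% of its words were unique. An exon of *ZNF672*, a zinc finger gene 98.5 kb from the 1q end, scored 196.9 to 327.5 over a CpG island with 7.32 CpG per 100 bp and 100% unique words. The introns of *CACNA2D4* (12p) and *CACNA1B* (9q), subunits of voltage-gated calcium channels, scored 145.8 to 371.9 and 151.1 to 264.7. They had only 2.36 and 1.90 CpG per 100 bp, with tandem repeats over 39.9% and 23.5% of their bases. An intron of *SNTG2* (2p), a syntrophin of the cytoskeleton, scored 152.2 to 322.2, and the 20q region near *YTHDF1*, with tandem repeats over 71.9% of its bases, scored 159.9 to 271.5. An exon of *ZNF595* (4p) and the promoter of *ABHD16B* (20q) closed the 10, with scores of 123.1 to 441.3 and 121.7 to 370.5.

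Chromosome ends held more peaks per Mb than the rest of the autosomes. IMR-32 had 3725 subtelomeric peaks (43.7 per Mb, against 32.4 elsewhere), N206 had 3704 (43.4 against 33.8), CHP-902R 4049 (47.5 against 35.7) and LA-N-2 3591 (42.1 against 40.9). CLB-GA had 3987 (46.7 against 28.1), SH-SY5Y 3649 (42.8 against 30.8), SK-N-AS 3007 (35.3 against 31.5) and SJNB-1 3385 (39.7 against 25.7). The density was higher at the ends in 8 of 8 lines, by a margin that ran from almost none in LA-N-2 to 1.66-fold in CLB-GA. The mean log2 ratio was 0.41 ± 0.23 (SD, n = 8), or 1.32-fold, with an adjusted p of 0.00977 in a two-sided exact sign-flip permutation test over the lines, adjusted over 15 measures. This p rests on the smallest raw p that 8 lines can give, 0.00781. The bases under a peak rose more, from 1.79% ± 0.278 elsewhere to 3.67% ± 0.403 at the ends (2.06-fold, higher in 8 of 8 lines, exact permutation test, adjusted p = 0.00977).

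Set against the number of CpG, the order turned. The ends had 2.09 ± 0.190 peaks per 1000 CpG and the rest of the autosomes 3.36 ± 0.484, and the ends were lower in each of the 8 lines. The ratio ran from 0.486 in LA-N-2 to 0.784 in CLB-GA, with a mean log2 ratio of -0.68 ± 0.23 (0.625-fold, exact permutation test, adjusted p = 0.00977). Both measures share the same peaks and differ only in whether bases or CpG are counted below them. To compare like with like, 1-kb windows were matched by their number of CpG, with the windows of the ends as weights. Of these windows, 7.80% ± 0.718 held a peak at the ends and 11.3% ± 1.14 elsewhere (log2 ratio -0.54 ± 0.13, 0.690-fold, lower at the ends in 8 of 8 lines, exact permutation test, adjusted p = 0.00977).

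**Figure D1:**
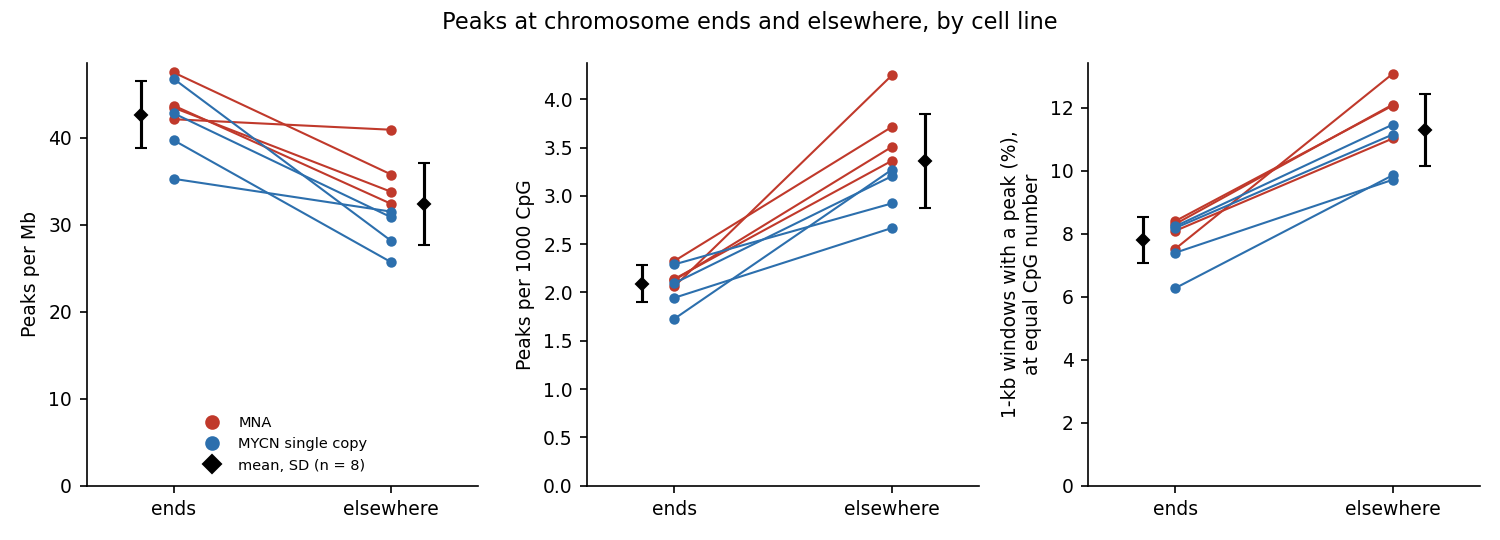
Peaks per Mb, peaks per 1000 CpG and the percentage of 1-kb windows with a peak at equal CpG number, at the ends and elsewhere. Each pair of joined points is 1 line (red MNA, blue *MYCN* single copy) and black diamonds give the mean and SD over 8 lines. Peaks per Mb were higher at the ends in 8 of 8 lines, while both measures that take the CpG into account were lower there in 8 of 8 lines.

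The gap lay in windows of intermediate CpG number. With 5 to 9 CpG per kb, 1.81% ± 0.389 of the windows at the ends and 1.98% ± 0.513 of the others held a peak, and lines differed in direction. From 10 to 59 CpG per kb, the ends were lower in 8 of 8 lines in each of 5 classes, for example with 11.7% ± 1.43 against 17.5% ± 2.10 at 20 to 29 CpG. At 80 CpG or more, where most windows are CpG islands, the shares were 11.9% ± 1.72 and 11.7% ± 2.64, and 4 of 8 lines were higher at the ends. GC content, which also differs, was matched in a further comparison added after the data were seen, and the log2 ratio was then -0.56 ± 0.10. In windows whose sampled words all occurred once in the genome it was -0.38 ± 0.12 (0.766-fold, lower at the ends in 8 of 8 lines, exact permutation p = 0.00781). The part that read mapping to repeated sequence has in the remaining difference was not tested.

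**Figure D2:**
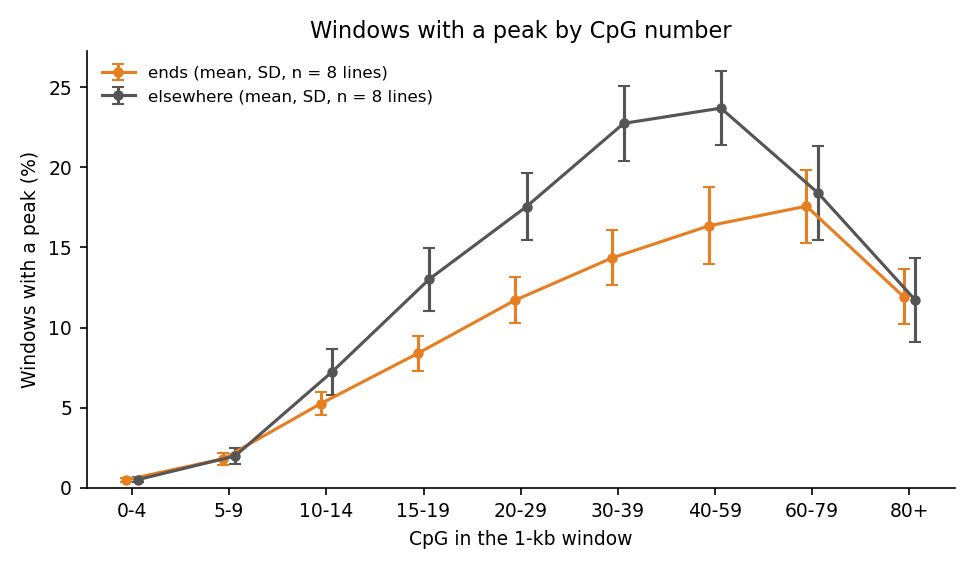
Percentage of 1-kb windows that held a peak (mean and SD over 8 lines) by the number of CpG in the window, at the ends (orange) and elsewhere (grey). The curves lie together below 10 CpG and from 60 CpG upward, and between them the ends stay lower, for example 14.3% against 22.7% at 30 to 39 CpG.

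The inner and the outer Mb of the ends did not differ beyond the spread between lines. The outer Mb held 42.2 ± 4.81 peaks per Mb and the inner Mb 43.1 ± 3.8, and the log2 ratio of -0.04 ± 0.13 had both signs among the lines (exact permutation test, adjusted p = 0.494). At the 39 telomeric ends, the outermost 50 kb held 31.1 ± 5.59 peaks per Mb, in sequence of which 42.5% of the words were unique. The density was 49.9 ± 6.84 per Mb from 250 to 500 kb, where 87.9% were unique, and 46.0 ± 4.45 from 1500 to 2000 kb. Beyond the ends it was 43.1 ± 4.53 from 2 to 5 Mb and 37.2 ± 4.32 from 5 to 10 Mb. Peaks per 1000 CpG were lowest in the outermost 50 kb (1.94 ± 0.348) and from 1000 to 1500 kb (2.01 ± 0.188), and stood at 2.98 ± 0.346 from 5 to 10 Mb. The part of repeated sequence in the outermost value was not tested.

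**Figure D3:**
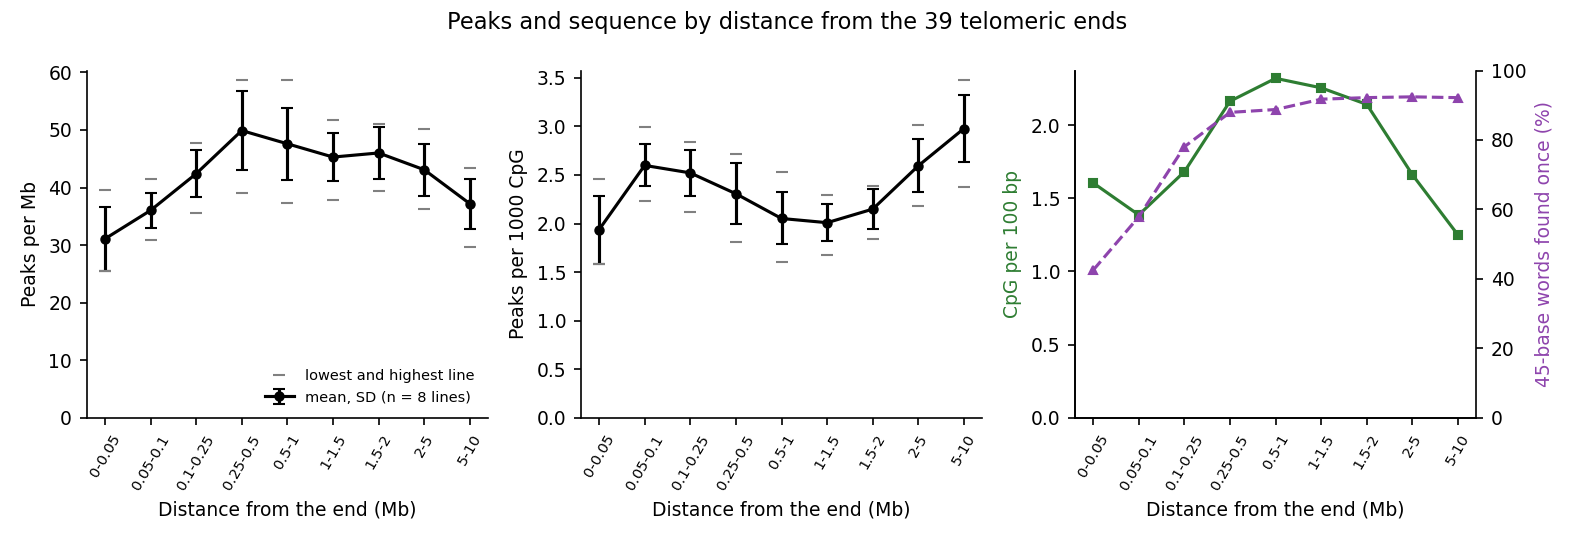
Peaks per Mb, peaks per 1000 CpG, and the CpG content and share of unique 45-base words of the sequence, by distance from the 39 telomeric ends in Mb. Black points and bars are the mean and SD over 8 lines and grey ticks the lowest and highest line. Peaks per Mb stood highest from 0.25 to 0.5 Mb (49.9) and lowest in the outermost 50 kb (31.1), where only 42.5% of the words were unique.

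Subtelomeric peaks also differed in kind. They were wider, with a median of 668 ± 56.4 bp against 477 ± 40.5 bp elsewhere, and held 3.24 ± 0.216 CpG per 100 bp against 2.64 ± 0.223. Promoter windows (1500 bp upstream to 1000 bp downstream of a transcription start) took 22.6% ± 1.36 of them against 15.4% ± 1.24, and exons outside these windows 9.67% ± 0.729 against 6.99% ± 0.864. Introns took 44.8% ± 2.27 against 51% ± 1.8, and sequence outside genes 23% ± 3.18 against 26.6% ± 1.33. The largest relative gap was on tandem repeats, which held the midpoint of 10.2% ± 1.72 of the subtelomeric peaks, from 7.11% in IMR-32 to 13.2% in SK-N-AS, and of 2.48% ± 0.365 of the others. CpG islands held 9.96% ± 1.32 and 3.67% ± 0.705. Each of these differences had the same sign in 8 of 8 lines (exact permutation test, adjusted p = 0.00977).

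These features are also more frequent in the sequence of the ends, and relative to their share of the bases the order again turned. Peaks were 1.96 ± 0.332 times as frequent on tandem repeats as the bases at the ends would give, against 3.30 ± 0.486 times elsewhere. For CpG islands these values were 2.44 ± 0.323 and 4.25 ± 0.815, and for promoter windows 1.25 ± 0.0749 and 1.72 ± 0.138. The ends were lower in 8 of 8 lines for all of the 3 features (exact permutation test, adjusted p = 0.00781 over these 3). The score of the peaks hardly differed. The median was 68.1 ± 1.49 at the ends and 70.6 ± 3.5 elsewhere, lower at the ends in 6 of 8 lines (exact permutation test, adjusted p = 0.0451). This call was lost, with an adjusted p of up to 0.0901, when IMR-32, N206, CHP-902R, LA-N-2, CLB-GA or SH-SY5Y was left out. The share of peaks with a score of at least 100 was 16.2% ± 2.43 and 16% ± 3.79 (difference of 0.220 percentage points, higher in 4 of 8 lines, exact permutation test, adjusted p = 0.805).

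The 44 ends varied widely. Over the 39 telomeric ends the mean of the lines ran from 3.38 to 66.7 peaks per Mb, with a median of 46.9, while the median of the 1295 other 2-Mb stretches of the autosomes was 29.1. The 5 acrocentric ends, in which 29.1% to 75.6% of the words were unique, ran from 4.67 to 21.9 peaks per Mb. The densest end was 2p, with 66.7 ± 19.7 peaks per Mb, more than 95.8% of the other stretches. It held 120 peaks in IMR-32, 145 in N206, 148 in CHP-902R, 76 in LA-N-2, 134 in CLB-GA, 202 in SH-SY5Y, 89 in SK-N-AS and 153 in SJNB-1. The *MYCN* groups overlapped there, and SH-SY5Y, the highest line, also had 1.54 times the median share of the lines in the adjoining 8 Mb. Next were 12q with 65.2 ± 13.6 and 12p with 64.7 ± 14.1 peaks per Mb. At 12q, CLB-GA held 176 peaks against 97 to 145 in the other lines, and its share of peaks in the adjoining 8 Mb was 2.46 times the median. The number of copies of a region in each line was not measured here, and its part in these values was not tested.

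The sparsest end was 9p, with 3.38 ± 2.49 peaks per Mb. It held 17 peaks in IMR-32, 4 in N206, 6 in CHP-902R, 4 in LA-N-2, 4 in CLB-GA, 8 in SH-SY5Y, 1 in SK-N-AS and 10 in SJNB-1, so that all lines were low. Only 0.386% of the other stretches were sparser. At 9p, 86.0% of the words were unique and the CpG content was 1.00 per 100 bp, where the autosomes outside the ends had 0.962. What underlies the low density, including the number of copies of 9p in each line, was not tested. The acrocentric 15p followed with 4.67 ± 2.22 peaks per Mb (3 to 11 peaks a line), where 29.1% of the words were unique. At 3p, which has 0.667 CpG per 100 bp, the density was 7.31 ± 4.74, with 30 peaks in CHP-902R and 0 in SK-N-AS. The list of SK-N-AS held 81837 autosomal peaks elsewhere. In the adjoining 8 Mb of 3p, its share of peaks was 0.397 times the median of the lines, and that of CHP-902R was 1.45 times the median.

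Of the arms that are often lost or gained in NB, 1p held 36.2 ± 11.8 peaks per Mb at its end (45 peaks in CLB-GA to 105 in N206), with 2.82 CpG per 100 bp and only 59.3% unique words. At 11q the density was 33.2 ± 16.8, with 28 peaks in IMR-32, 42 in N206, 111 in CHP-902R, 49 in LA-N-2, 96 in CLB-GA, 108 in SH-SY5Y, 37 in SK-N-AS and 60 in SJNB-1. These values fell far apart within both groups. In the adjoining 8 Mb, IMR-32, with the lowest share at 11q, had 0.365 times the median share of the lines. SH-SY5Y, with the highest share, had 1.89 times the median there. The end of 17q held 57.7 ± 11 peaks per Mb (86 in IMR-32 to 150 in CLB-GA) and that of 5p, which carries *TERT*, 53.2 ± 6.98 (80 in SK-N-AS to 124 in CHP-902R). The range of the 8 lines was narrow at 5p beside that at 11q. The widest range in counts was at 19q, an end chosen after its values were seen, with 239 peaks in IMR-32 and 50 to 111 in the others, while the adjoining 8 Mb held 1.06 times the median share in IMR-32.

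**Figure D4:**
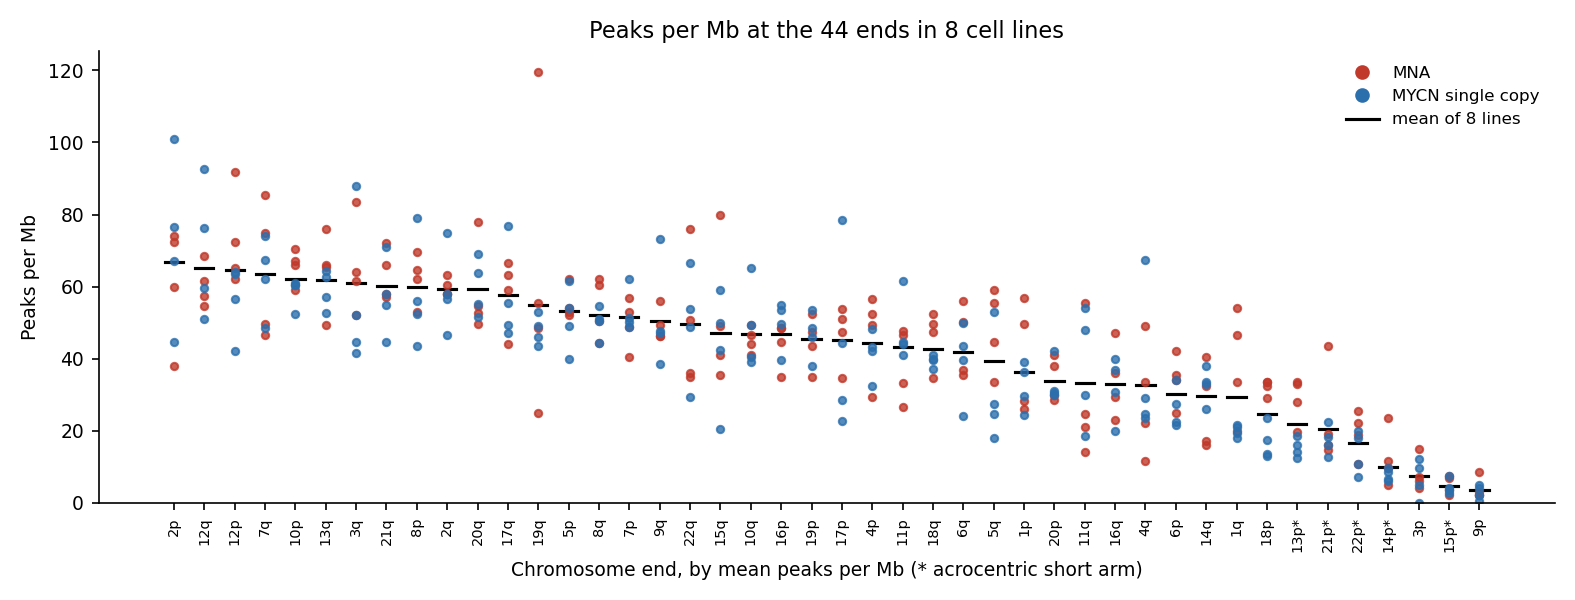
Peaks per Mb of known sequence at each of the 44 ends, ordered by the mean of 8 lines (black bars), with a point for each line (red MNA, blue *MYCN* single copy). The ends of 2p, 12q and 12p stand at the top with means of 66.7, 65.2 and 64.7, and 3p, 15p and 9p at the bottom with 7.31, 4.67 and 3.38. Acrocentric short arms carry an asterisk.

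Across the 39 telomeric ends, those with more CpG had somewhat more peaks per Mb (Spearman's rho 0.336, Pearson's r 0.440) and fewer peaks per 1000 CpG (rho -0.512, r -0.434). These values are a description over ends that share the same 8 libraries, and the number of CpG enters both sides of the second relation. The ends of 16p and 19p, with 3.56 and 3.71 CpG per 100 bp, had 1.31 ± 0.191 and 1.23 ± 0.175 peaks per 1000 CpG, whereas 12p, with 1.46 CpG per 100 bp, had 4.42 ± 0.961.

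The *MYCN* groups were compared by the share of each line's autosomal peaks that lay at the ends, since the lists differ in length. The share was 4.24% in IMR-32, 4.05% in N206, 4.18% in CHP-902R and 3.27% in LA-N-2, and 5.17% in CLB-GA, 4.35% in SH-SY5Y, 3.54% in SK-N-AS and 4.83% in SJNB-1. The groups overlapped, at 3.93% ± 0.450 for MNA and 4.47% ± 0.705 for single copy lines (n = 4 each, difference of -0.542 percentage points, two-sided exact permutation p = 0.229, adjusted p = 0.629 over 12 measures). The smallest p that 4 lines against 4 allow is 0.0286. Without SK-N-AS the difference was -0.852 points, with an unadjusted exact permutation p = 0.0286. Of the 12 measures, which included the density, cover, CpG and score contrasts of the ends, none passed the test, and the smallest adjusted p was 0.629. At single ends, only 18p separated the groups, with 65, 58, 67 and 67 peaks in LA-N-2, N206, IMR-32 and CHP-902R and 26 to 47 in the single copy lines. That is 1 of 44 ends, in a genome in which 1.19% of all 2-Mb bins had every MNA line above every single copy line and 0.747% the reverse.

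Few regions were shared by all lines, and their share was larger at the ends. The merged peaks gave 13701 regions at the ends, of which 7270 (53.1%) had a peak in 1 line only and 175 (1.28%) in all 8. Elsewhere 195524 of 349297 regions (56.0%) had a peak in 1 line and 2180 (0.624%) in 8. Among peaks with a score of at least 100, 17 regions at the ends (0.624%) and 192 elsewhere (0.260%) were common to all lines. Peaks at the ends are wider and cover more of the bases (3.67% against 1.79%). The part of width and cover in the larger share was not tested. Of the 175 regions, 99 overlapped at least 50 bp of tandem repeats (56.6%, against 38.2% of the 2180), 77 touched a CpG island (44% against 29.1%) and 71 a promoter window (40.6% against 38.1%). These features also cover more of the sequence at the ends: 5.19% against 0.752% of the bases for tandem repeats, 4.08% against 0.864% for islands and 18.1% against 8.97% for promoter windows. The shares were not compared at equal content, nor with those of all regions at the ends. In 142 of the 175 at least 90% of the words were unique, and in 12 fewer than 50%. The regions spread over 37 ends, with 11 each at 20q and 2p and 10 each at 17q, 21q and 8q. In this count 11q, 14p, 15p, 16q, 17p, 3p and 3q had 0, although 3q held 60.9 ± 17.2 peaks per Mb.

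The share of coding genes with a promoter peak did not differ between the ends and elsewhere beyond the spread between lines. A peak in the window of any annotated start of a gene counted here, internal starts included. Of 1331 protein-coding genes with a transcription start there, 40.3% ± 3.12 had a promoter peak in a line, from 33.7% in SK-N-AS to 43.3% in CLB-GA, against 37.8% ± 2.96 of 17898 genes elsewhere. The difference of 2.47 percentage points had a positive sign in 5 of 8 lines (exact permutation p = 0.172). A promoter peak in all 8 lines was found in 88 of the 1331 genes (6.61%) and in 6.38% of the others. By the mean score percentile, the leading genes were *ABHD16B*, *MZF1* (a myeloid zinc finger factor at 19q), *MYT1L* (a neuronal zinc finger factor at 2p), *TBCD* (a tubulin folding cofactor at 17q), *POTEH* (22p, 11.5% unique words), *PCMTD2* (20q), *BRF1* (a subunit of an RNA polymerase III initiation factor, 14q), *SYCE1* (a protein of the synaptonemal complex, 10q), *PHPT1* (a histidine phosphatase) and *FBXW5* (both 9q). *MYT1L* lies on the minus strand and its 5′ end is outside the 2 Mb. It was counted through an internal start 1787 kb from the end, and its scores may come from windows beyond the 2 Mb.

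The list of neural genes at the ends had larger shares of genes with a peak than all coding genes there. Among all genes of the ends, whether coding or not, 24.8% of the pairs of a gene and a line had a promoter peak and 33.4% a peak in the gene body, and among the coding genes alone 40.3% and 60.6%. For the list of neural receptors, channels and synaptic genes, 14 coding genes, these shares were 56.2% and 83.9%. This list, like the other gene lists, was chosen with earlier results of these data known, so its shares only describe its members. The genes of the list are longer, with a median of 56.4 kb against 15.4 kb for all coding genes at the ends, and the part of gene length in these shares was not tested. Genes with promoter peaks in all 8 lines included *GRIN1* (a subunit of the NMDA glutamate receptor, scores 62.4 to 212), *DLGAP2* (a postsynaptic scaffold, 57.9 to 144) and *SLC6A12* (a betaine and GABA transporter, 56.4 to 124). *SHANK3*, another postsynaptic scaffold, whose annotated start nearest to the 22q end lies 76.6 kb from it, had a promoter peak in 6 lines and peaks in its body in all 8. *DRD4*, the dopamine receptor at 11p, had a peak in no line, neither at its promoter nor in its body, and *CHL1* and *CNTN6*, neural adhesion genes at the sparse 3p end, had no promoter peak in any line.

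The coding genes with the most peaks in their bodies, ranked after the values were seen and counted over the whole gene even where it runs past the 2 Mb, were long. *PTPRN2* (7q), a phosphatase-like protein of secretory vesicles, held 54 peaks in IMR-32, 76 in N206, 100 in CHP-902R, 37 in LA-N-2, 76 in CLB-GA, 78 in SH-SY5Y, 70 in SK-N-AS and 63 in SJNB-1. *DLGAP2* (8p) held 58, 72, 77, 58, 94, 68, 47 and 60 in the same order of lines. LA-N-2 was lowest at *PTPRN2* and SK-N-AS at *DLGAP2*, and the groups overlapped at both genes. *MYT1L* followed with 44.5 ± 11.8 and *ADARB2* (10p), a brain-specific relative of the RNA-editing enzymes, with 34.1 ± 8.72.

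**Figure D5:**
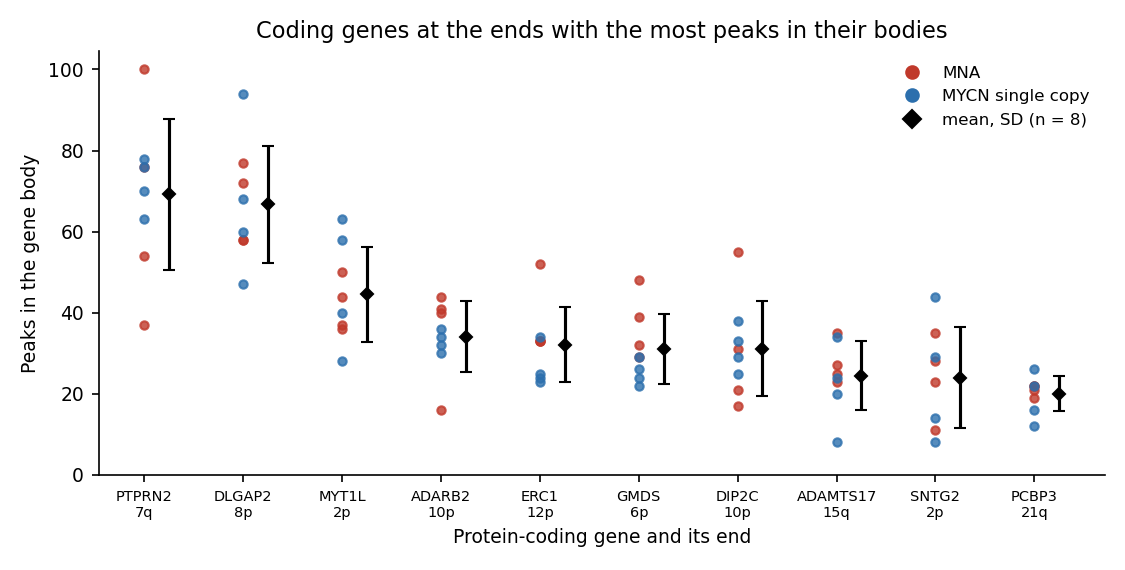
Number of peaks in the body of the 10 protein-coding genes at the ends with the highest mean, with a point for each line (red MNA, blue *MYCN* single copy) and black diamonds for the mean and SD over 8 lines. *PTPRN2* (69.2) and *DLGAP2* (66.8) stand above the other genes, and points of both groups overlap at both.

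The cancer genes at the ends gave shares near those of all coding genes, with a promoter peak in 40.4% and a body peak in 61.0% of the pairs of 17 genes and 8 lines. The annotated start of *TERT*, the catalytic subunit of telomerase, that is nearest to the 5p end lay 1255 kb from it. With all of its annotated starts counted, *TERT* had a promoter peak in IMR-32 (score 63.0), N206 (68.4), CHP-902R (74.6), LA-N-2 (87.9) and SJNB-1 (77.1), and none in CLB-GA, SH-SY5Y or SK-N-AS. Which of its starts held these peaks was not examined. Peaks in its body were found in 7 lines, with 3 each in CLB-GA and SK-N-AS, and none in SH-SY5Y. *EHMT1*, a histone H3 lysine 9 methyltransferase at 9q, was the cancer-list gene with promoter peaks in all 8 lines, scoring 65.1 to 153. *RTEL1*, a helicase that regulates telomere length (20q), had a promoter peak in 6 lines and *RASA3*, a Ras GTPase-activating protein (13q), in 6 lines, while *FASN*, *TNFRSF18* and *TNFRSF4* had no promoter peak.

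Developmental factors had a promoter peak in 23.6% of the pairs of a gene and a line, against 40.3% for all coding genes at the ends, and the count was highest in IMR-32. Of 9 such genes at the ends, 7 had a promoter peak in IMR-32, 2 in N206, 1 in CHP-902R, 1 in LA-N-2, 0 in CLB-GA, 1 in SH-SY5Y, 3 in SK-N-AS and 2 in SJNB-1. Of all coding genes at the ends, 42.7% had one in IMR-32 and 33.7% to 43.3% in the other lines. *FOXF2* (score 138), *FOXQ1* (101), *IRF4* (66.5) and *NKX6-2* (68.4) had a promoter peak in IMR-32 and in no other line. *FOXC1* and *UNCX* had one in no line, and *MYT1*, a neural zinc finger factor, had one in 7 lines. The alpha-globin cluster at 16p, whose CpG islands are unmethylated in many tissues, had a promoter peak in 17.5% of the pairs, below the 40.3% of all coding genes. These peaks were found in IMR-32 (3 of 5 genes), SH-SY5Y (2) and SJNB-1 (2) and in none of the other 5 lines. In SJNB-1 the genes were *HBM* and *HBZ*, both with a score of 53.2, close to the lowest score of the lists. *HBA1* had no peak in any line, in sequence of which 28.2% of the words were unique.

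Members of multicopy subtelomeric families, picked by symbol, had a promoter peak less often than all genes of the ends. The pairs of a gene and a line with a promoter peak made up 13.6%, against 24.8% for all genes there, coding or not. Of 93 genes and pseudogenes of these families, 64 had no promoter peak in any line and 4 had one in all 8 (*DDX11L5*, *DUX4L9*, *FRG1-DT* and *WASH3P*). Not every member is multicopy or outermost. *FRG1-DT* had 86.9% unique words, and *RPL23AP39* lay 1712 kb from the 3p end with 100%. The median share of unique words in these genes was 7.61%, so that a read from many of them could seldom be placed. What the absence of a peak means there was not tested. The gene *DUX4* and its tandem copies at 4q and 10q, which are the D4Z4 array itself, had 0% to 5.51% unique words and no promoter peak, except *DUX4L8* with a peak in 3 lines. *DUX4L9*, with 6.4% unique words, lies apart from these copies at chr4:190942562-190943820, on the opposite strand. *TUBB8* (10p) and *TUBB8B* (18p), beta-tubulin genes, had promoter peaks in 5 and 7 lines.

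Few subtelomeric peaks held the telomere repeat. Sites with 2 joined units (TTAGGGTTAGGG, or CCCTAACCCTAA on the other strand, overlapping sites counted) numbered 2141 on the autosomes. Of these, 1337 (62.4%) lay at the ends and 1115 within the outermost 100 kb. In a line, 2 to 9 subtelomeric peaks held such a site, 0.121% ± 0.0720 of them, against 0.00699% ± 0.00233 of the peaks elsewhere. The share was higher at the ends in 8 of 8 lines. This direction was largely given in advance by where the sites lie, so no test is reported. The shares were not compared at equal site density. Of the 1337 sites at the ends, 2 to 42 (0.15% to 3.14%) lay under a peak of a line. Of the sampled words nearest to the sites, 35% were unique.

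The outermost coding gene with a body peak in any line had one in all 8 lines at 10 of the 39 telomeric ends. Of the 1169 coding genes at the ends with a body peak in any line, 331 (28.3%) had one in all 8. Among the 10 outermost genes with a peak in all lines were *PGBD2* (26.5 kb from the 1q end), *ZNF595* (43.2 kb, 4p), *VIPR2* (a neuropeptide receptor, 7q), *CACNA1B* (9q), *PARD6G* (a cell polarity gene 11.8 kb from the 18q end), *MZF1* (34.0 kb, 19q), *PCMTD2* (29.3 kb, 20q) and *PRMT2* (an arginine methyltransferase 34.9 kb from the 21q end). *POLR3K* (16p) and *FAM240C* (2q) had a body peak in 1 line.

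Regions that told the *MYCN* groups apart were rare. Of the 13701 regions, 14 (0.102%) had a peak in all MNA lines and no single copy line, and 15 (0.109%) the reverse, while over all autosomal regions these shares were 0.121% and 0.0394%. With the same number of peaks taken from each line the counts were 8 and 13, where the shares over all autosomes were 0.0710% and 0.0619%, and among peaks with a score of at least 100 they were 2 and 1, against 0.0653% and 0.0170%. The regions with MNA peaks included 2 near *SAMD11* on 1p, an intron of *CHSY1* (15q), which makes chondroitin sulfate, and the region upstream of *ZNF124* (1q). Those with single copy peaks included 1 upstream of *ZNF469* (16q), a zinc finger gene of the cornea, 1 of the 9 promoter windows of *GALNT9* (12q), a glycosyltransferase of the nervous system, and 1 each at *NFATC1* (18q) and *MYO1C* (17p). As genes, *GALNT9* and *MYO1C* had a promoter peak in all 8 lines, in the MNA lines outside these regions. By promoter windows, 1 of 1331 coding genes at the ends (*ZNF587*, 19q) had a peak only in the MNA lines, all 4 of them, and 4 (*ZNF469*, *MAF1*, *ZDHHC11* and *RTEL1-TNFRSF6B*) in all single copy lines and no MNA line. Over all autosomal coding genes the shares were 0.203% and 0.104%. The read-through gene *RTEL1-TNFRSF6B* shares its sequence with *RTEL1*, whose promoter windows held peaks in 3 MNA lines (scores 87.1 in N206, 107.9 in CHP-902R and 92.6 in LA-N-2). *MAF1* encodes a repressor of RNA polymerase III. The adjoining gene *WDR97* had the same promoter scores in the single copy lines, and promoter peaks in all 4 MNA lines as well (scores 66.2 to 151.6). None of the separating regions lay at 8q, so that the call for *MAF1* depends on where its windows end. In *ZDHHC11*, 56.3% of the words were unique. The lncRNA genes *LINC00334* (21q) and *LINC00470* (18p) had promoter peaks in the MNA lines only, and the pseudogene *RNA5SP122* (2q) in the single copy lines only. The share of such calls over all noncoding genes of the autosomes was not computed, so these names carry no more than a description.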

How the data were processed

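The authors sheared genomic DNA of each NB cell line, captured methylated fragments with MBD2 (MethylCollector), sequenced them paired-end, mapped the reads on GRCh37 with Bowtie 0.12.7 and called peaks with MACS, separately in each line. Options of the peak calling and an input control are not given in the sources used here. The deposited lists give each peak's position and score, a value at least 50 that MACS derives from its p-value, and it was used here to rank and filter peaks within a list. Scores printed side by side are on the scale of each line's own list.

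The members and gene lists were chosen with earlier results of these data known. Chromosome ends, CpG, CpG islands (GC of at least 55%, observed to expected CpG of at least 0.65, at least 500 bp) and tandem repeats (units of 10 to 80 bp, at least 80% identity) were computed from the GRCh37 sequence, and the gene models of GENCODE release 44 (lifted to GRCh37) were used, with Python 3.11.15, numpy 2.4.6, numba 0.67.0 and matplotlib 3.10.9. Unique sequence was estimated from words of 45 bases sampled every 10 bases within 5 Mb of an end and every 100 bases elsewhere. A peak touched a promoter window or a gene when they shared at least 1 bp. A gene had a promoter peak when a peak touched the window of any of its annotated starts, and its score was the highest among these windows. In the shares of peaks by feature, the midpoint of the peak was used. Ends and elsewhere were compared within each line with two-sided exact sign-flip permutation tests, and the *MYCN* groups with two-sided exact permutation tests, with Benjamini-Hochberg adjustment. Steps were tested on simulated data.

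Named were the 3 densest and 3 sparsest ends and 1p, 11q, 17q and 5p, the 10 regions and at most 10 promoters shared by all lines with the highest mean score percentile, genes whose promoter peak separates the groups, the outermost coding gene with a body peak, and members of 5 gene lists (multicopy subtelomeric families, the alpha-globin cluster, developmental factors, neural genes and cancer genes). *TLX3*, a developmental factor of the list, lies outside the ends, and not every member of the lists is reported here. Alternatives were a score of at least 100, lists of 70110 autosomal peaks each, ends of 1 Mb and 5 Mb, 39 ends, assignment by overlap, 500-bp windows, a cover of 50% of the merged region, and the omission of single lines.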

Additional observations from a re-analysis of the deposited data

Results flagged for a closer look

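Among 54 groups of 4 lines, 3 held a line far from the other lines, where the gap to the nearest line took more of the range than Dixon's critical value allows, which chance gives in about 1 in 20 groups. The median score of the subtelomeric peaks was 71.4 in LA-N-2 and 67.4 to 67.8 in the other MNA lines. The end of 9p held 0.0193% of the peaks of IMR-32 and 0.00364% to 0.00619% of those of the other MNA lines. At 11q, CHP-902R had 0.114% of its peaks and the other MNA lines 0.0319% to 0.0459%.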

How the results depend on the processing

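The contrasts of density, cover, peaks per CpG and windows at equal CpG kept their direction and passed the test under every alternative run. With single lines left out, their log2 ratios ran from 0.36 to 0.46 for density, 1.00 to 1.09 for cover, -0.73 to -0.63 per CpG and -0.56 to -0.50 at equal CpG, with adjusted p of at most 0.0195 in the exact permutation test. Without the 5 acrocentric ends, the density ratio was 0.51 and the ratio per CpG -0.65, and against the rest of the same chromosome, an alternative added after seeing the data, they were 0.33 and -0.63. The lower share of peaks outside genes was -2.0 percentage points and no longer passed among peaks with a score of at least 100, and the difference in the median score ran from -2.93 to -2.03 with single lines left out, where 6 of 8 omissions lost the call. The difference between the *MYCN* groups in the share of peaks ran from -0.852 to -0.309 percentage points with single lines left out, and passed an unadjusted test only without SK-N-AS. The cause was not tested.

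The numbers of separating regions moved most between settings. Regions with peaks in the MNA lines numbered 2 at a score of at least 100, 8 with equal lists, 7 when peaks had to cover 50% of a region and 40 over the 7 lines of the study's text, while the reverse pattern gave 1, 13, 4 and 27 regions. At a cover of 50% the 2 shares were 0.0511% and 0.0292% at the ends, against 0.0771% and 0.0168% over all autosomal regions. Over the 7 lines they were 0.317% and 0.214%, against 0.435% and 0.0813%. With single lines left out they ran from 19 to 40 and from 22 to 44, since fewer lines must then concur. The shares then ran from 0.146% to 0.317% and from 0.171% to 0.338% at the ends. Over all autosomal regions they ran from 0.184% to 0.451% and from 0.0761% to 0.181%. The share of regions with a peak in all lines was 0.624% at a score of at least 100. Of 211 recomputed values, 182 kept their direction and their side of the test or, for counts, stayed near the reported count. Lines of the 2 *MYCN* groups could not be paired, because each library is a different line and its number only follows the order of deposit. Depth per line is unknown, words of 45 bases only approximate where paired reads can be placed, and peak numbers also depend on how the caller splits peaks.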
